A study of Mus musculus with 4 samples.

Results

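The genes described here encode the chains of mouse collagens. They were taken by symbol, as every gene of the array whose name is Col, a number, a and a number, and they are 43 of the 22327 genes with a named probe. By type they were 11 fibrillar, 8 basement membrane, 6 collagen VI and 18 other chains. The choice used names only and no signal. For the 18 genes with several probes, the probe with the highest mean signal over the 4 arrays stood for the gene.

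Collagens are matrix proteins in which chains wind into a triple helix, some types from copies of a single chain and others from partner chains made together. Fibrillar collagens build the fibres of connective tissue, collagen IV forms the sheet of basement membranes around vessels and at the surface of the brain, and collagen VI forms beaded filaments near cells. In the brain, the niches of neural stem cells lie against basement membrane, whereas fibrillar collagen is largely a product of the meninges and vessel walls. The chains are hydroxylated and folded in the endoplasmic reticulum, trimmed and crosslinked outside the cell, bound by integrins and discoidin domain receptors, and cleaved by matrix metalloproteinases.

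RNA was measured on 4 single-colour arrays, 1 for each group. All groups were p53-/- cells labelled as brain of the E14.5 mouse embryo and grown in serum-free medium: neural stem cells (NSC), such cells with a vector for Ceacam1L (NSC-Ceacam1L), the cell line NSCL61, and this line with a short hairpin RNA against Ceacam1 (NSCL61-Ceacam1sh). Ceacam1 is a cell adhesion molecule of the immunoglobulin family, and the design asks which genes lie downstream of it. Vectors were transfected and cells selected with hygromycin for 1 week, and the labels leave unsaid whether the NSC and NSCL61 cells carried an empty vector, and whether the lines were clones or pools.

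No probe was named for Ceacam1, so neither manipulation could be checked, and each name below is that of the array's label. Between 14010 and 15008 genes were well above background on an array (62.7% to 67.2%). The NSCL61-Ceacam1sh array stood apart: 47.7% of the genes evaluated against NSCL61 differed by 2-fold or more, against 16.6% between the NSC arrays and 28.4% between NSCL61 and NSC. It also went against the label of neural stem cells in part. Of 8 neural stem markers, 5 were lower than on NSCL61, Pax6 and Msi1 lay within 2-fold and Prom1 was higher. Nes and Sox2 stayed well above background on all 4 arrays but were among the 5, by -1.18 and -1.76 on the log2 scale. Fabp7, a radial glia gene, read 8.90, 8.39 and 8.36 on the other arrays and -4.0 here. Hes5, a Notch target of neural stem cells, and Olig1, of the oligodendrocyte lineage, read 6.01 and 6.61 on NSCL61 and were not well above background with the hairpin. Every value that rests on this array carries that limit, and with 1 array per group no result can be given without it.

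A level is the log2 of the probe's signal over the 75th percentile of the array, so that 0 is that percentile, and it is compared only with the same probe on another array. A difference is given with the scanner software's modelled error (± value), which covers the noise of the spots and not that of cultures. There were no replicates, so no difference has a test. A gene was evaluated in a comparison if either array showed it well above background, and it is called higher or lower from a 2-fold difference, that is 1.0 on the log2 scale. Where a gene was seen on 1 of the arrays only, "at least" gives the fold over the dimmest signal that still counted as above background. Such a bound holds for the main background correction only, and another correction can give a smaller fold. In such bulk RNA, fewer cells of a type and less RNA per cell cannot be told apart.

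Of the 43 chain genes, 31 were well above background on some array and 16 on all 4. The counts per array, in the order of the groups above, were 24, 28, 24 and 22. The 12 genes not well above background on any array were Col24a1 among the fibrillar chains, Col4a3 and Col15a1 among those of basement membranes, Col6a4, Col6a5 and Col6a6 of collagen VI, and Col10a1, Col13a1, Col14a1, Col17a1, Col25a1 and Col28a1. Among the 31 seen, the highest level was on NSC-Ceacam1L for 14, on NSCL61-Ceacam1sh for 11, on NSCL61 for 6 and on NSC for 0.

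**Figure D1:**
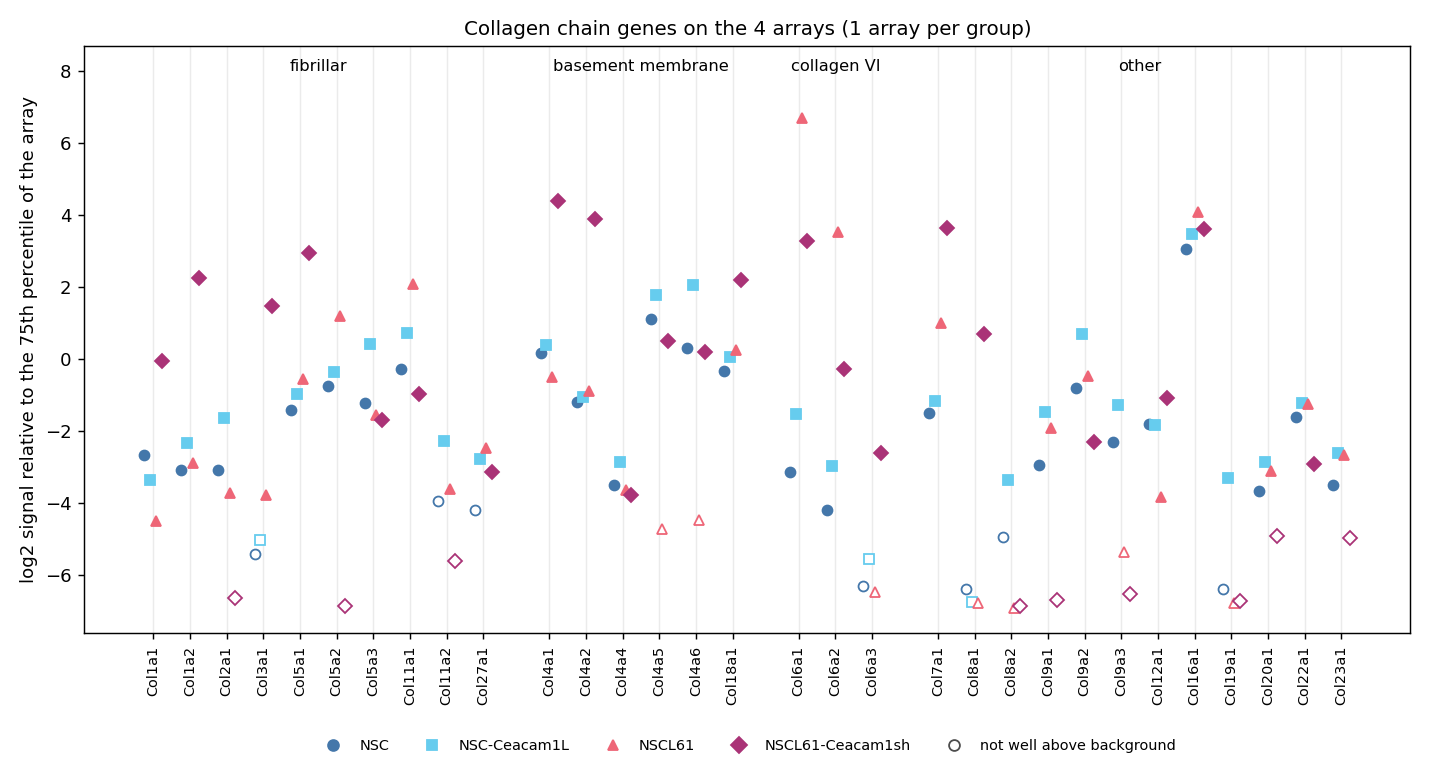
Level of the 31 collagen chain genes seen on any array, as log2 signal relative to the 75th percentile of each array (vertical axis), by gene and type (horizontal axis), with 1 symbol per array and open symbols where the probe was not well above background. Heights are to be compared within a gene only. Col6a1 stands at 6.70 on NSCL61 and -3.14 on NSC, and Col4a1 at 4.38 on NSCL61-Ceacam1sh and at most 0.39 on the other arrays.

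Between NSC-Ceacam1L and NSC, collagen differences were small and mostly upward. Of 28 chain genes evaluated, 13 were higher (46.4%) and 0 lower, where 10.5% of the 15325 genes evaluated were higher and 6.13% lower. The median difference was 0.86 over the chain genes and -0.10 over all genes. Among the 24 chain genes above background on both arrays, 9 were higher and the median was 0.72. The calls lie close to the threshold at low signal: with another background correction (normexp), 3 of the 28 were higher and the median was 0.40, with a threshold of 4-fold 1 was higher, and Col6a1 and Col6a2 differed by 0.79 and 0.41 under normexp.

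Between NSCL61-Ceacam1sh and NSCL61, the same genes split. Of 28 evaluated, 13 were higher (46.4%) and 11 lower (39.3%), where 23.4% and 24.3% of 15616 genes were higher and lower. Only 4 chain genes lay within 2-fold: Col5a3, Col27a1, Col4a4 and Col16a1. The median of -0.14, beside 0.01 over all genes, describes few of them, and it turned to 0.28 under median scaling and to 0.91 over the 18 genes seen on both arrays. Among those 18, 9 were higher and 5 lower.

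Between NSCL61 and NSC, 9 of 27 chain genes were higher and 5 lower, where 14.4% and 14.1% of 15310 genes were higher and lower. The median was 0.36, beside 0.03 over all genes. Over the 21 chain genes seen on both arrays it was 0.56, with 7 higher and 2 lower. This comparison shares its NSC array with the first comparison and its NSCL61 array with the second, so its differences are not independent of theirs.

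The first pair of comparisons shares no array. Of the 13 chain genes called up in NSC-Ceacam1L, 7 were down in the hairpin comparison (53.8% of the 13 and 63.6% of the 11 lower), and 1, Col4a6, was up in both. Over all genes, 572 of the 1603 called up in the first were down in the second, which is 35.7% of the former and 15.1% of the 3787 lower. Up in both were 331, or 20.6% of the 1603, beside 7.69% of the 13 chain genes. The 7 were Col2a1, Col11a1, Col11a2, Col6a1, Col6a2, Col9a1 and Col9a2. Under normexp 1 of them, Col9a2, kept both calls, over genes seen on both arrays of each comparison 4 did, and at 4-fold 0 did. Of the 13 chain genes higher with the hairpin, 9 were within 2-fold between the NSC arrays and 3 were not evaluated there. This was much as over all genes. Of the 3659 genes higher with the hairpin, 9.05% were higher with Ceacam1L and 9.95% lower, so that most were called in neither direction.

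**Figure D2:**
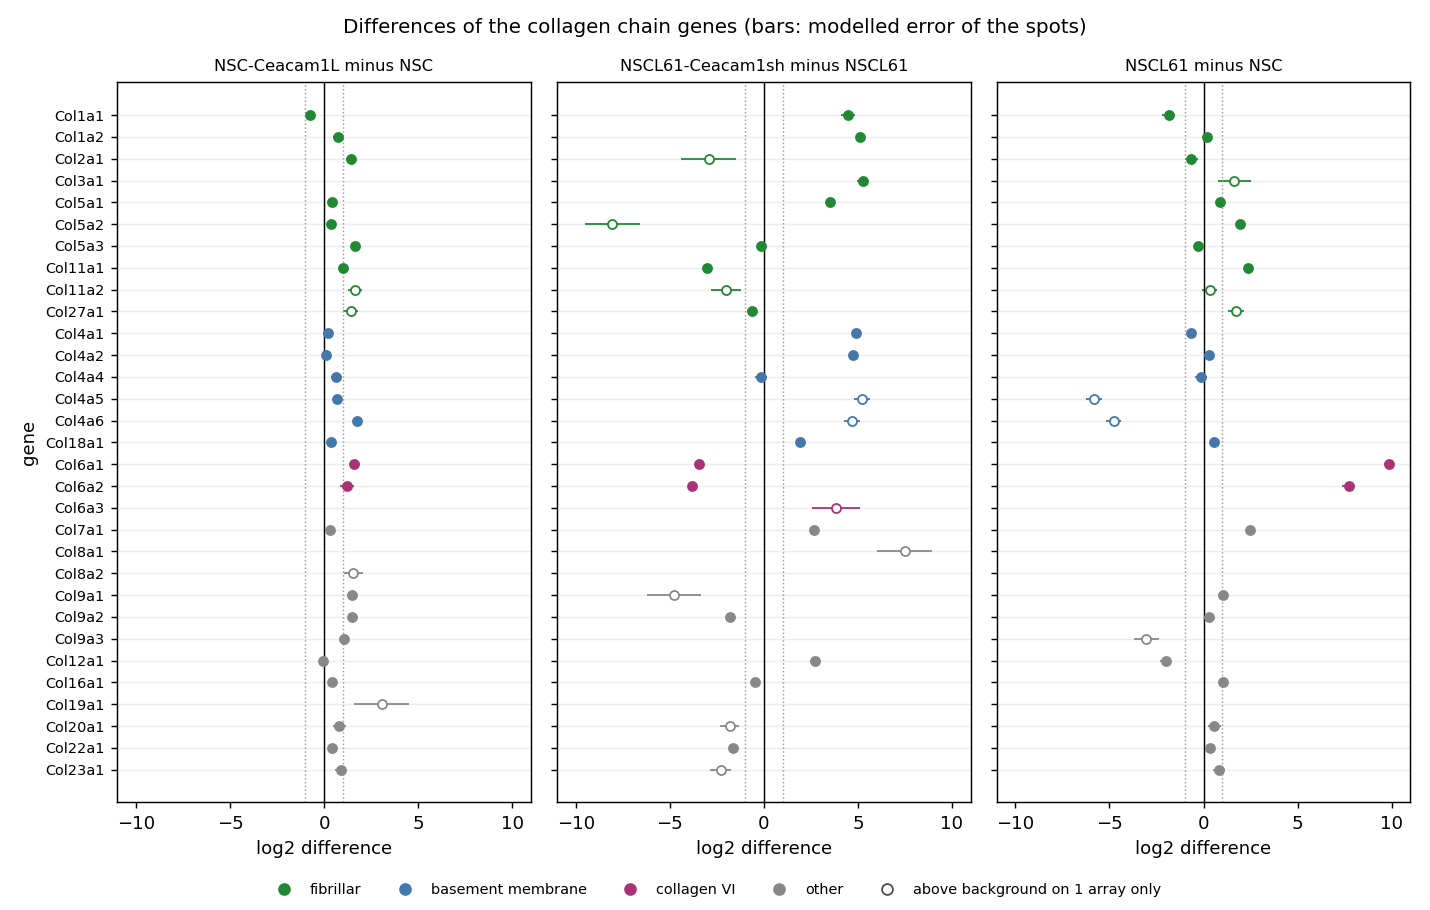
Log2 differences (horizontal axes) of the 31 chain genes in the 3 comparisons, with bars for the modelled error, dotted lines at 2-fold, colours for the type and open symbols for genes above background on 1 of the 2 arrays. In the hairpin comparison values run from -8.06 (Col5a2) to 7.49 (Col8a1), while they run from -0.72 (Col1a1) to 3.08 (Col19a1) in the Ceacam1L comparison.

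The fibrillar chains of collagens I and III, the main fibres of skin, bone and vessel walls, were highest on the hairpin array. Col1a1, the main chain of collagen I, read -2.66, -3.37, -4.51 and -0.04 on NSC, NSC-Ceacam1L, NSCL61 and NSCL61-Ceacam1sh, the order kept for all values that follow. Its partner Col1a2 read -3.07, -2.32, -2.90 and 2.24. Col3a1, which forms homotrimers in soft tissue, was not well above background on either NSC array and read -3.78 on NSCL61 and 1.47 with the hairpin. All 3 were low on the first 3 arrays. With the hairpin they were higher by 4.48 ± 0.35 (22.3-fold), 5.14 ± 0.23 (35.3-fold) and 5.25 ± 0.29 (38.0-fold). Under normexp these differences were smaller, at 2.58, 4.19 and 3.68, and still past 2-fold. With Ceacam1L, Col1a1 differed by -0.72 ± 0.25 and Col1a2 by 0.75 ± 0.25, both within 2-fold. NSCL61 differed from NSC by -1.86 ± 0.36 for Col1a1, which was -0.68 under normexp, and by 0.17 ± 0.27 for Col1a2.

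Collagens V and XI are minor fibrillar collagens that sit inside larger fibrils and set their diameter. Their chains did not move as a group. Col5a1 read -1.41, -0.96, -0.56 and 2.95, a difference of 3.51 ± 0.20 (11.4-fold) with the hairpin. Col5a2, its usual partner chain, read -0.76, -0.36 and 1.20 on the first 3 arrays and was not well above background on the hairpin array, where it was at least 61.7-fold lower than on NSCL61. Col5a3 read -1.23, 0.43, -1.54 and -1.68, so that it was higher with Ceacam1L (1.66 ± 0.21) and not apart with the hairpin (-0.14 ± 0.22). One chain of collagen V was therefore higher, one lower and one unmoved by 2-fold on the same array. Col11a1, made in cartilage and in other tissues, read -0.28, 0.73, 2.08 and -0.96, highest on NSCL61, which stood 2.35 ± 0.21 above NSC, and the hairpin array differed from it by -3.04 ± 0.21 (8.20-fold). Its difference with Ceacam1L was 1.01 ± 0.21, at the threshold. Col11a2 was seen on NSC-Ceacam1L (-2.28) and NSCL61 (-3.60) only, at least 3.13-fold above NSC and at least 2.22-fold above the hairpin array. Under normexp its Ceacam1L and hairpin differences were 0.66 and -0.62, both short of 2-fold.

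The remaining fibrillar chains were dim. Col2a1, the chain of cartilage collagen II, read -3.07 on NSC, -1.64 on NSC-Ceacam1L and -3.71 on NSCL61 and was not well above background with the hairpin. It was 2.70-fold higher with Ceacam1L (1.43 ± 0.26, or 0.75 under normexp) and at least 2.05-fold lower with the hairpin (-0.74 under normexp). Col27a1, a fibrillar chain of developing cartilage, was not well above background on NSC and read -2.78, -2.48 and -3.13 on the other arrays. The latter 3 values lie within 2-fold of each other. In all, 5 of 9 fibrillar chains evaluated were higher with Ceacam1L and 0 lower, where 10.5% and 6.13% of all genes were. With the hairpin 4 of 10 were higher and 4 lower, against 23.4% and 24.3%. In NSCL61 against NSC 4 of 10 were higher and 1 lower, against 14.4% and 14.1%. Of the 5, Col5a3 alone (1.35) stayed past 2-fold under normexp, where Col11a1 was 0.94 and Col27a1 0.43. From NSC to NSCL61, Col3a1 (0.45), Col27a1 (0.68) and Col1a1 (-0.68) fell short under normexp, while Col5a2 (1.74) and Col11a1 (2.16) did not.

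Collagen IV chains assemble in fixed sets. Col4a1 and Col4a2 make the network found in nearly all basement membranes, Col4a3, Col4a4 and Col4a5 that of the kidney glomerulus, and Col4a5 with Col4a6 a network of other membranes. Col4a1 with Col4a2, and Col4a5 with Col4a6, lie head to head on opposite strands. In the gene coordinates used, the first pair overlaps at its starts and the second pair has 1274 bases between its genes. Col4a1 (10 spots per array) read 0.17, 0.39, -0.51 and 4.38, and its SD between spots of an array was 0.0406 to 0.057. Col4a2 read -1.19, -1.06, -0.88 and 3.88. Both were nearly level on the first 3 arrays and far higher on the fourth. The hairpin array stood above NSCL61 by 4.90 ± 0.21 (29.8-fold) for Col4a1 and 4.76 ± 0.21 (27.0-fold) for Col4a2. Between the NSC arrays they differed by 0.21 ± 0.20 and 0.13 ± 0.21.

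Col4a5 and Col4a6 had another course, with the low array at NSCL61. Col4a5 read 1.10 on NSC, 1.79 on NSC-Ceacam1L and 0.49 on NSCL61-Ceacam1sh and was not well above background on NSCL61. It was at least 53.8-fold lower on NSCL61 than on NSC, and at least 35.3-fold higher on the hairpin array than on NSCL61. Col4a6 read 0.32, 2.05, -4.47 and 0.21 in the usual order, and its NSCL61 value was again not well above background. The differences were -4.78 ± 0.42 from NSC to NSCL61, 4.68 ± 0.42 from NSCL61 to the hairpin array and 1.73 ± 0.20 with Ceacam1L. No bound is given for Col4a6, because its second probe read -2.15, -1.73, -1.29 and -1.99, above background on all 4 arrays and within 2-fold throughout. The probes of Col4a6 thus disagree on whether NSCL61 was low, and Col4a5 had 1 probe.

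Because the genes of each pair start next to each other and their main probes had like values, the bases between or before their starts are shown, from RefSeq on GRCm38.p6. The starts of Col4a1 and Col4a2 lie 21 bases apart on chromosome 8, on opposite strands. The stretch chr8:11312805-11312826, on the plus strand, runs from one start to the other and lies inside both genes, which overlap there. Capitals mark the motif GGGCGG, the core of a GC box.
Col4a1 and Col4a2: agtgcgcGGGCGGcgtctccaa
The starts of Col4a6 and Col4a5 lie 1343 bases apart on chromosome X. The stretch before Col4a5 is chrX:141475169-141475369 on the plus strand, with the motif CCAAT in capitals. That before Col4a6 is chrX:141474096-141474326 on the minus strand, with none of the motifs searched. Both stretches stop at the outermost end of the gene, short of the starts used for the distance. The 300-base window around each of these starts holds 1 GGGCGG, outside the bases shown.
Col4a5: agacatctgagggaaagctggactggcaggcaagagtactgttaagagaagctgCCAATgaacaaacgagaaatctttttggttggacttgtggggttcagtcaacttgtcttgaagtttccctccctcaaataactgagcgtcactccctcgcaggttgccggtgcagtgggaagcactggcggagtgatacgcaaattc
Col4a6: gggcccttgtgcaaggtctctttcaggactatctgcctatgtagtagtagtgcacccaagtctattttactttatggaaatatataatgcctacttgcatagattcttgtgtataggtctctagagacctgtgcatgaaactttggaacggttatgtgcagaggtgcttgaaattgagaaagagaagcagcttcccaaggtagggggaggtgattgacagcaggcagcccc

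Col18a1, whose C-terminal fragment is endostatin, joins collagen and heparan sulfate chains in basement membranes. It read -0.32, 0.06, 0.25 and 2.20, higher with the hairpin by 1.95 ± 0.20 (3.87-fold). Its second probe gave 2.18 for the same difference. Col4a4 was dim and level at -3.51, -2.86, -3.65 and -3.79, all within 2-fold. Another Col4a4 probe read -4.35 on NSC-Ceacam1L and -1.54 on NSCL61 and was not well above background on NSC or with the hairpin, so its course was different. Of the 6 basement membrane chains evaluated, 5 were higher (83.3%, against 23.4% of all genes) and 0 lower (against 24.3%) with the hairpin (median 4.72). With Ceacam1L 1 was higher (16.7%, near the 10.5% of all genes) and 0 lower (against 6.13%). In NSCL61 against NSC 0 were higher (against 14.4%) and 2 lower (33.3%, against 14.1%).

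Collagen VI is assembled from Col6a1, Col6a2 and one further chain, Col6a3 in most tissues. In the 3 comparisons, Col6a1 held the largest difference of any chain gene, from NSC to NSCL61. It read -3.14, -1.53, 6.70 and 3.27 on the 4 arrays. Col6a2 read -4.18, -2.96, 3.54 and -0.28. Both were low on the NSC arrays, high on NSCL61 and in between on the hairpin array. From NSC to NSCL61 they differed by 9.85 ± 0.28 (920-fold) and 7.72 ± 0.34 (211-fold), folds whose lower value lies near background. With the hairpin they were 10.8-fold (-3.44 ± 0.20) and 14.1-fold (-3.82 ± 0.20) below NSCL61. With Ceacam1L they were above NSC by 1.62 ± 0.28 and 1.22 ± 0.35. A second Col6a2 probe was not well above background on NSC and read -2.69, -1.22 and -4.36 on the other arrays. It differed by -3.15 with the hairpin, by 5.37 from NSC to NSCL61 and by 3.89 with Ceacam1L. Both differences from NSC rest on a level of -6.58 there. The dimmest level that counted as above background on NSC was -4.27, so this probe bears out a smaller fold than 211.

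Col6a3, the chain that completes the molecule, did not follow its partners. It was well above background on the hairpin array only, at -2.62, at least 4.07-fold above NSCL61. Under normexp that difference was 0.84, short of 2-fold. On NSCL61, where Col6a1 and Col6a2 were highest, Col6a3, Col6a4, Col6a5 and Col6a6 were all not well above background. Col6a2 and Col6a1 lie on the same strand of chromosome 10 with 85161 bases between them, and the 250 bases before each start are shown because the pair had like values: chr10:76726045-76726294 for Col6a1 and chr10:76623631-76623880 for Col6a2, both on the minus strand. Capitals mark CCGCCC, the reverse complement of GGGCGG.
Col6a1: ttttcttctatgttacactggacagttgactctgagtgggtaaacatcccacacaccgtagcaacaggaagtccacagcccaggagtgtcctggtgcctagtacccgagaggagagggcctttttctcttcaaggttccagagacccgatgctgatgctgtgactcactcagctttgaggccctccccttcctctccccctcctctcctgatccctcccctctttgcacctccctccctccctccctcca
Col6a2: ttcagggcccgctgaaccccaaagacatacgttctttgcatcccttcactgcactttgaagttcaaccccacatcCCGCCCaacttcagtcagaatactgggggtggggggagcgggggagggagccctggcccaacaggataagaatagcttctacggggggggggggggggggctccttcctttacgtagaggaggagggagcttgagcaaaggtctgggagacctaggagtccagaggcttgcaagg

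In the wider set of 300-base windows around starts, 38 windows matched 35 of the 43 chain genes. GGGCGG, on either strand, was in 23 of the 38 (60.5%) and in 35.7% of all 32851 windows of the table. CCAAT was in 13 (34.2%, against 37.4%) and TATAAA in 5 (13.2%, against 13.6%). On the reverse strand the first and second of these can share end bases, neighbouring genes share bases, and a match describes letters only.

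Adjacent chain genes did not always move alike. Col3a1 and Col5a2 lie 24624 bases apart on chromosome 1, and with the hairpin the first was 38.0-fold higher and the second at least 61.7-fold lower than on NSCL61. Under normexp these differences were 3.68 and -4.44. Col3a1 was not evaluated with Ceacam1L. Col9a1 and Col19a1, 4944 bases apart, were both higher with Ceacam1L on their main probes, Col9a1 2.76-fold and Col19a1, seen on that array only, at least 1.95-fold. Both fell short of 2-fold under normexp, at 0.85 and 0.65. A second probe of Col9a1 was not well above background on either NSC array, and a second probe of Col19a1 not on any array.

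**Figure D3:**
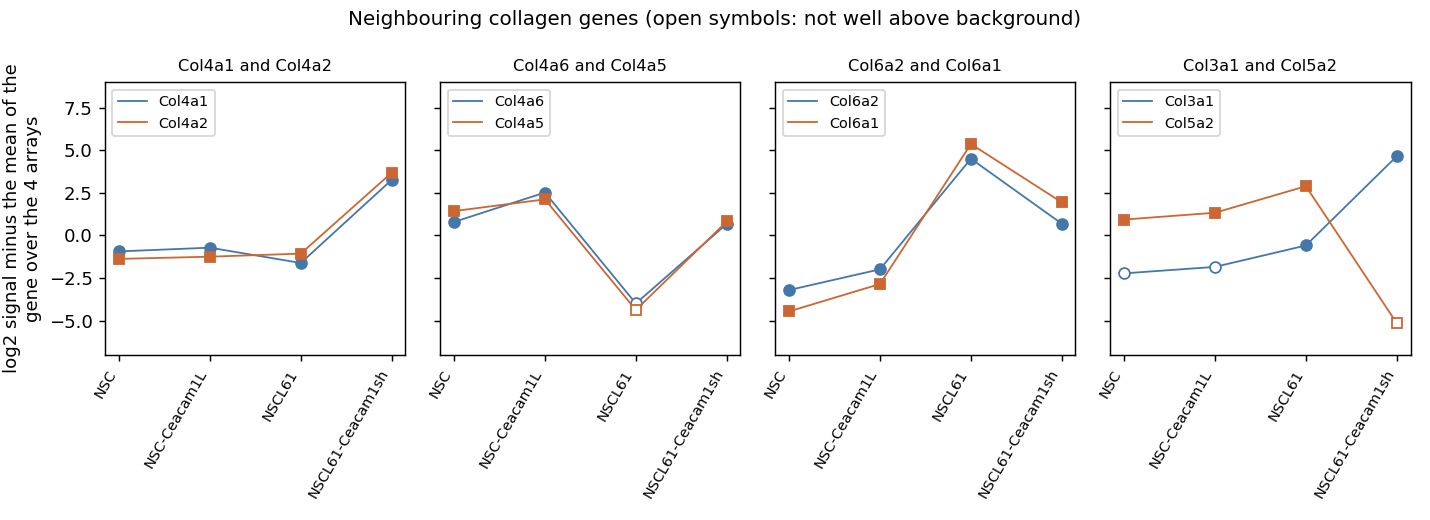
Log2 signal of neighbouring collagen genes on the 4 arrays (horizontal axis), each as the difference from the gene's own mean over the arrays (vertical axis), with open symbols where the probe was not well above background. Col4a1 with Col4a2, Col4a6 with Col4a5 and Col6a2 with Col6a1 follow each other, while Col3a1 and Col5a2 part on the hairpin array (38.0-fold higher and at least 61.7-fold lower than on NSCL61). Under normexp the hairpin differences of Col3a1 and Col5a2 were 3.68 and -4.44. The second Col4a6 probe, not drawn, was level over the arrays and does not follow Col4a5.

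Among the other chains, collagen IX, which coats collagen II fibrils, was highest with Ceacam1L on the main probe of each of its chains. Col9a1 read -2.95, -1.48 and -1.92 on the first 3 arrays and was not well above background with the hairpin. A second Col9a1 probe was well above background on NSCL61 only, at -3.86, so its course was different. Col9a2 read -0.80, 0.69, -0.48 and -2.31 on the 4 arrays. Col9a3 was seen on NSC (-2.31) and NSC-Ceacam1L (-1.27) only. They stood 1.47 ± 0.25, 1.49 ± 0.21 and 1.04 ± 0.23 above NSC. Under normexp Col9a1 and Col9a3 fell short of 2-fold in that comparison, at 0.85 and 0.62. With the hairpin Col9a1 was at least 7.12-fold and Col9a2 3.53-fold below NSCL61, and Col9a3 was at least 5.05-fold lower on NSCL61 than on NSC.

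A second set was highest with the hairpin. Col7a1, the chain of the anchoring fibrils that tie basement membrane to dermis, read -1.49, -1.17, 1.00 and 3.65. It was higher in NSCL61 than in NSC by 2.49 ± 0.21, and higher again with the hairpin by 2.65 ± 0.20. Col8a1, a short-chain collagen of vessel walls, was seen on the hairpin array only (0.71), at least 41.1-fold above NSCL61. Col12a1, which lies on the surface of fibrils, read -1.80, -1.84, -3.82 and -1.08, lowest on NSCL61. It was 4.06-fold lower there than on NSC, a difference of -2.02 that was -0.92 under normexp, and 6.67-fold higher with the hairpin.

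Several transmembrane or fibril-associated chains were lower with the hairpin. Col23a1, a transmembrane collagen, read -3.50, -2.60 and -2.67 and was not well above background on the hairpin array (at least 4.21-fold lower). Col20a1 read -3.67, -2.86 and -3.10, likewise not seen with the hairpin (at least 3.14-fold lower). Under normexp the hairpin differences of Col23a1 and Col20a1 were -0.91 and -0.73, both short of 2-fold. Col22a1, known from muscle and tendon junctions, read -1.61, -1.21, -1.26 and -2.91, 3.14-fold lower. Each of these 3 genes lay within 2-fold in the Ceacam1L comparison and between NSCL61 and NSC. Col8a2 (-3.37) and Col19a1 (-3.30) were seen on NSC-Ceacam1L only, at least 1.87-fold and 1.95-fold above NSC. Under normexp they differed from NSC by 0.39 and 0.65. The second probe of each gene was not well above background on any array.

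Col16a1, a fibril-associated chain, was bright and nearly level, at 3.05, 3.47, 4.09 and 3.60. NSCL61 was 1.04 ± 0.20 above NSC, and the other pairs compared differed by 0.42 ± 0.20 and -0.49 ± 0.20. The difference of NSCL61 from NSC fell short of 2-fold with spike-in scaling (0.82) and averaged over all probes (0.61). Its 4 probes did not all give this course. A second probe, above background on all 4 arrays, ran alike at 0.34, 0.67, 1.2 and 0.63, and another was not well above background on any array. The probe shown here lies in the triple-helix coding part at chr4:129756457-129756516 (mm9), with the recurring glycine codons in capitals. It was not well above background on NSC and read -3.53, -3.10 and -2.01 on the other arrays, 1.09 higher with the hairpin where the main probe was -0.49.
Col16a1 helix probe: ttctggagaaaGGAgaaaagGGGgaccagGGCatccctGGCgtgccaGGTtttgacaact

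For the other chains together, 5 of 11 evaluated were higher with Ceacam1L (45.5%, against 10.5% of all genes) and 0 lower (against 6.13%). With the hairpin 3 of 9 were higher (33.3%, against 23.4%) and 5 lower (55.6%, against 24.3%). In NSCL61 against NSC 3 of 9 were higher (33.3%, against 14.4%) and 2 lower (22.2%, against 14.1%). Probe choice also touched Col22a1, Col23a1, Col8a2 and Col9a1. Averaging all probes of a gene, Col22a1 and Col23a1 were higher with Ceacam1L (1.40 and 1.10), while Col8a2 (0.49) and Col9a1 (0.46) were not.

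Of the 21 genes that fold and hydroxylate collagen, 6 were higher with the hairpin (28.6%, near the 23.4% of all genes) and 2 lower (9.52%, against 24.3%). With Ceacam1L 1 was higher (4.76%, against 10.5%) and 4 lower (19.0%, against 6.13%). In NSCL61 against NSC 2 were higher (9.52%, against 14.4%) and 5 lower (23.8%, against 14.1%). Serpinh1, the chaperone HSP47 that binds the triple helix, read 3.52, 3.45, -0.69 and 5.35. Fkbp10, a prolyl isomerase that assists collagen folding, read 2.43, 3.97, -1.36 and 5.55. Both had their low at NSCL61, as Col4a5 and Col12a1 did, and stood 6.04 ± 0.20 and 6.91 ± 0.21 higher with the hairpin. P4ha1, a catalytic subunit of prolyl 4-hydroxylase, read 0.98, -0.56, 1.92 and -1.38, with differences of -1.54 ± 0.21 with Ceacam1L and -3.30 ± 0.21 with the hairpin. P4ha2, the sister subunit, was lower with Ceacam1L (-2.66 ± 0.22) and within 2-fold with the hairpin (0.60 ± 0.20). P3h2, which hydroxylates collagen IV, was at least 19.3-fold lower with Ceacam1L. Colgalt2, which adds galactose to hydroxylysine, was at least 8.0-fold lower with the hairpin.

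Genes that trim and crosslink collagen were mostly higher with the hairpin, 8 of 11 evaluated (72.7%, against 23.4% of all genes), with 2 lower (18.2%, against 24.3%) and a median of 3.18. Between the NSC arrays 2 of 10 were higher (20.0%, against 10.5%) and 2 lower (20.0%, against 6.13%). In NSCL61 against NSC 1 of 8 was higher (12.5%, against 14.4%) and 3 lower (37.5%, against 14.1%). Pcolce, which enhances removal of the procollagen C-propeptide, read 8.64, 0.04, -0.44 and 7.13. It was high on NSC and on the hairpin array and low on the other arrays, with differences of -8.60 ± 0.23, 7.56 ± 0.20 and -9.07 ± 0.23 in the Ceacam1L, hairpin and NSCL61 comparisons. Lox, the lysyl oxidase that starts crosslinking, and its relative Loxl4 were seen with the hairpin only, at least 7.0-fold and 57.1-fold above NSCL61. Loxl1 was at least 29.6-fold higher with the hairpin. Bmp1, the C-proteinase itself, went the other way, at 5.05, 4.89, 6.07 and 3.81, a difference of -2.26 ± 0.20 with the hairpin.

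Of the proteins that organise fibrils, 5 of 7 were higher (71.4%, against 23.4% of all genes) and 0 lower (against 24.3%) with the hairpin. With Ceacam1L 2 of 6 were higher (33.3%, against 10.5%) and 0 lower (against 6.13%). In NSCL61 against NSC 5 of 6 were higher (83.3%, against 14.4%) and 0 lower (against 14.1%). Dcn, decorin, was seen on the hairpin array only (3.31), at least 248-fold above NSCL61. Thbs2 read -2.29, -0.31 and 4.33 on NSC-Ceacam1L, NSCL61 and NSCL61-Ceacam1sh and was not well above background on NSC. Sparc, which binds collagen in the matrix, was bright on every array at 7.12, 8.28, 9.26 and 9.22 and differed by -0.04 ± 0.20 with the hairpin. Lum, Kera and Postn were not well above background on any array.

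Of the collagen receptors, 5 of 7 were higher (71.4%, against 23.4% of all genes) and 2 lower (28.6%, against 24.3%) with the hairpin. Ddr1, the discoidin receptor of epithelia and glia, read 4.32, 4.51, 6.50 and 2.08 on the 4 arrays, a difference of -4.42 ± 0.20 with the hairpin. Ddr2, its relative for fibrillar collagen in mesenchyme, read -2.82 on NSC, -1.73 on NSC-Ceacam1L and 2.47 with the hairpin and was not well above background on NSCL61, so that it was at least 139-fold higher with the hairpin. Itgb1, the common beta chain of collagen-binding integrins, read 2.35, 1.98, 2.52 and 4.05, higher by 1.53 ± 0.20. Itga1, an integrin alpha chain for collagen IV and I, read -3.45, -1.76, -1.10 and 0.60. Mrc2, which takes up collagen for degradation, read -0.50, -1.92 and -0.13 on NSC, NSC-Ceacam1L and the hairpin array, and its probe was not well above background on NSCL61. Lair1, an inhibitory receptor of immune cells, read -1.68, -0.85, 0.03 and -3.03, a difference of -3.06 ± 0.23 with the hairpin. Itga2 was seen on NSC-Ceacam1L only, at least 2.65-fold above NSC. With Ceacam1L 4 of 9 receptor genes were higher (44.4%, against 10.5%) and 1 lower (11.1%, against 6.13%). In NSCL61 against NSC 3 of 7 were higher (42.9%, against 14.4%) and 2 lower (28.6%, against 14.1%).

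Among genes that degrade collagen, 3 of 6 were higher (50%) and 2 lower (33.3%) with the hairpin, where 23.4% and 24.3% of all genes were. Mmp2, a gelatinase that also cleaves collagen IV, was not well above background on NSC and read -4.21, -3.79 and 0.21 on the other arrays, higher by 4.0 ± 0.29. Mmp13, a collagenase, was seen on the hairpin array only (-0.39, at least 19.1-fold). Mmp14, its membrane-bound relative, read -0.94, 0.09, -0.52 and 1.23. Mmp15 read 3.13, 1.86 and 1.54 and was not seen with the hairpin, at least 78.1-fold lower. With Ceacam1L 2 of 4 were higher and 1 lower, and in NSCL61 against NSC 1 of 5 was higher and 1 lower.

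Of the partners of collagen IV in basement membranes, 5 of 11 were higher (45.5%) and 1 lower (9.09%) with the hairpin, where 23.4% and 24.3% of all genes were. With Ceacam1L 2 of 12 were higher (16.7%, against 10.5%) and 0 lower (against 6.13%). In NSCL61 against NSC 2 of 11 were higher (18.2%, against 14.4%) and 3 lower (27.3%, against 14.1%). Nid1, nidogen, which links laminin to collagen IV, was not well above background on NSCL61 and read 0.24, 2.71 and 3.37 on the others, at least 260-fold below the hairpin array. Lama4, a laminin chain of vessels, had its low at NSCL61 too, at least 6.69-fold below NSC. Lama1, the laminin chain of early basement membranes, read 1.56 and 1.85 on the NSC arrays and was not well above background on NSCL61 or with the hairpin. Hspg2, perlecan, read 0.19, 0.42, -0.12 and 3.47, much as Col4a1 did, and Agrn was lower with the hairpin (-2.04 ± 0.20).

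**Figure D4:**
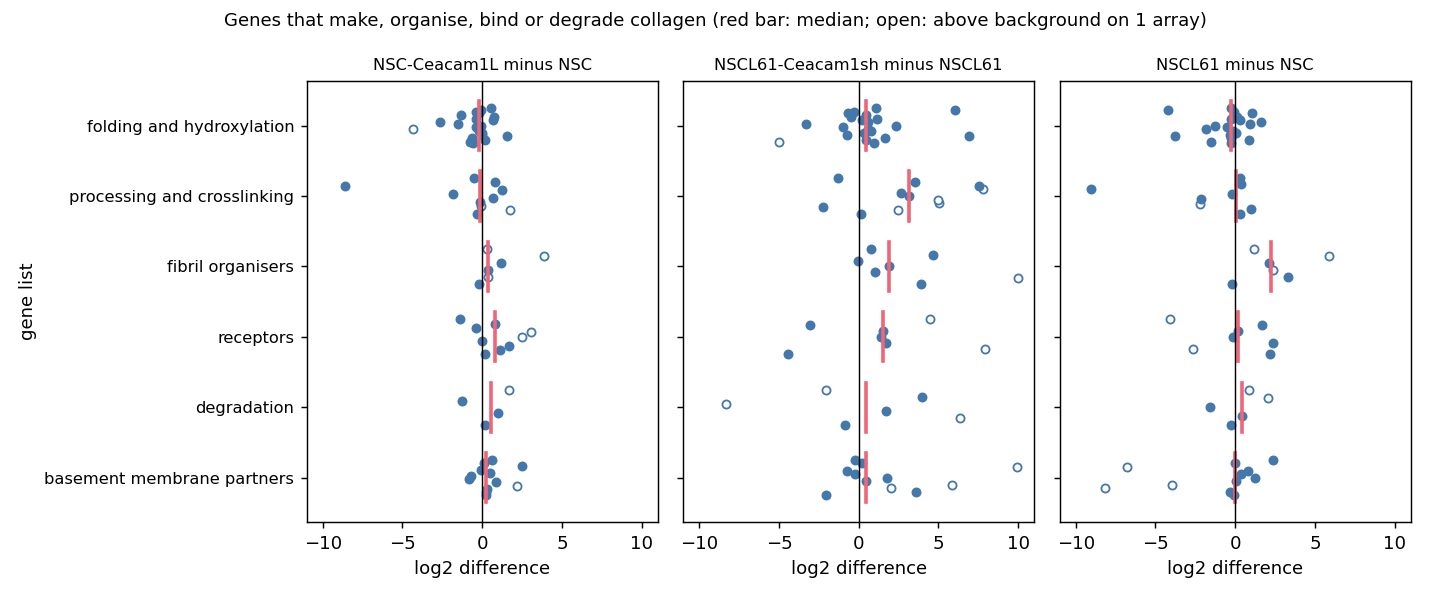
Log2 differences (horizontal axes) of genes that make, process, organise, bind or degrade collagen and of basement membrane partners, by list (vertical axis), in the 3 comparisons, with 1 point per gene evaluated, a red bar at the list's median and open symbols for genes above background on 1 of the 2 arrays. With the hairpin the median of the processing and crosslinking genes is 3.18, and it is -0.13 with Ceacam1L.

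Some markers of other cell types also differed between the arrays and others did not. Their part in the collagen differences was not tested. Fibroblast markers well above background numbered 2, 3, 3 and 4 of 8 over the 4 arrays, with median levels over all 8 of -6.25, -5.95, -6.62 and -1.99. With the hairpin 4 of 5 evaluated were higher (80.0%, against 23.4% of all genes), Dcn, Pdgfrb, Prrx1 and Twist1, and Thy1 was lower. Lum, Fap and Postn were not well above background on any array. Mesothelial markers numbered 0, 0, 1 and 2 of 5, with Msln at 6.39 on the hairpin array and Wt1, Upk3b and Lrrn4 not well above background on any. Pericyte and smooth muscle markers numbered 2, 2, 3 and 3 of 6 with medians over all 6 of -5.55, -5.63, -4.50 and -5.53. With the hairpin 1 of 4 evaluated was higher and 1 lower (25.0% each, near the 23.4% and 24.3% of all genes). Endothelial markers numbered 3, 3, 4 and 3 of 6, with Tek and Cldn5 not seen. Of 4 evaluated with the hairpin, 0 were higher and 1 was lower (25.0%).

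Glial and neuronal markers were mostly lower on the hairpin array. Over all genes, 24.3% were lower with the hairpin and 10.5% higher with Ceacam1L. Astrocyte markers numbered 8, 8, 8 and 5 of 8, with median levels of 0.56, 3.95, 3.71 and -3.56: 5 of 8 were higher and 0 lower with Ceacam1L, and 8 of 8 were lower with the hairpin. Oligodendrocyte precursor markers numbered 6, 6, 6 and 2 of 6, with 5 of 6 lower with the hairpin and Pdgfra within 2-fold. Neuronal markers numbered 5, 6, 5 and 3 of 6, with 5 of 5 evaluated lower. Neural stem markers numbered 8, 8, 7 and 7 of 8 and were mixed with the hairpin: 5 were lower, Pax6 and Msi1 lay within 2-fold and Prom1 was at least 5.15-fold higher. Microglial markers numbered 2, 2, 3 and 2 of 6. Csf1r and Itgam were above background on all 4 arrays and Cx3cr1 on NSCL61, while Aif1, Ptprc and P2ry12 were on none.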

How the data were processed

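Each deposited scanner file gave background-subtracted intensity values (processed signal) for 59305 non-control spots; the arrays were single-colour Agilent mouse arrays (design 028005, mm9 coordinates). The authors made them with Agilent Feature Extraction 10.7.3.1, per the file headers, while the submitters' processing notes name 9.1. The authors' deposited log2 values of these arrays served as an alternative only.

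Outlier spots were left out (143 to 187 per array, 1 of them on a chain gene), signals were divided by the array's 75th percentile (480.0, 571, 439 and 541) and taken to log2, and spots of a probe were averaged. No spot was saturated. Well above background means passing the scanner software's test on at least 50.0% of a probe's spots. "At least" folds set the bright array against the higher of the dim probe's own signal and the lowest signal above background on that array, unless another probe of the gene was seen there. The precision is limited by the number of arrays, 1 per group. The arrays lay on 1 slide, so that position and group cannot be told apart.

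Chain genes were named from the NSCL61 file, and other genes by accession (27173 probes), symbol (3575) or older symbol (565) in RefSeq's table of GRCm38.p6, while 24300 probes stayed unnamed. Groups came from the sample titles. Counts of calls and medians were computed in Python 3.11.15 with pandas 2.3.3 and tested on simulated data, and limma 3.58.1 in R 4.3.3 gave normexp (offset 50), quantile and cyclic loess alternatives. All chain genes seen on an array were named, and in each companion list genes from the 4 with the largest differences in a direction plus Serpinh1, P4ha1, Lox, Sparc, Ddr1, Ddr2, Itgb1, Mmp2, Mmp13 and Mmp14. Marker genes named as not seen or as checks of the labels were chosen after their values were seen. The members and lists were chosen with earlier results of these data known.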

Additional observations from a re-analysis of the deposited data

How the results depend on the processing

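With Ceacam1L, the 13 higher chain genes became 3 under normexp and 1 at a 4-fold threshold, the 0 lower became 1 at 1.5-fold and 1 without a filter on dim probes, and the median of 0.86 became 0.40 under normexp, 0.40 without the filter and 1.27 under spike-in scaling, which moved the median of all genes by 0.41. With the hairpin, the 11 lower became 7 under normexp and 5 over genes seen on both arrays, and the median of -0.14 became 0.28 (median scaling), 0.17 (quantile), 0.10 (cyclic loess), 0.31 (spike-in scaling), 0.10 (mean of all probes), 0.91 (both arrays) and 0.02 (no filter). Median and spike-in scaling moved the median of all genes there by 0.42 and 0.45. Between NSCL61 and NSC, the 9 higher became 4 at 4-fold, the 5 lower became 2 under normexp and 2 over genes seen on both arrays, and the median of 0.36 became -0.17 without the filter. The cause of these shifts was not tested, except that fewer genes enter where both arrays are required. The other counts stayed within 1.5 times, and no called gene changed sign under any alternative run, the deposited log2 values included. No paired analysis was possible because each group had 1 array. Arrays alone limit the precision, and chains near background are bounds.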
